A study of Mus musculus with 19 samples.

Results

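The custom array carried 4610 catalogue regions named only by a genomic interval of mouse build mm9, and 2178 of them had their highest level in erythroblasts. The level is the log2 processed signal minus the 75th percentile of the array, averaged over the spots and probes of a region. A region was kept when the highest of its 7 cell type means was that of early or late erythroblasts and at least 1 of its probes exceeded background clearly, by the scanner software's flag, on each array of that type (well above background). The late erythroblast mean was the highest for 1523 regions and the early erythroblast mean for 655. Of the others, 684 were highest and well above background in another population, and 1748 were not well above background in the population where they were highest.

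The samples were total RNA of cells sorted from adult bone marrow of C57BL/6 mice aged 8 to 12 weeks, with no transgene or treatment named in the labels, and 1 array was run per sample. Early erythroblasts were Ter119+ cells with high forward scatter and high CD44 (n = 2), and late erythroblasts were Ter119+ cells with low forward scatter and intermediate CD44 (n = 3). Stem and multipotent progenitor cells (LSK) were Lin-, cKit+ and Sca1+ (n = 3). Common myeloid progenitors (CMP, n = 3), megakaryocyte-erythroid progenitors (MEP, n = 3) and granulocyte-macrophage progenitors (GMP, n = 2) were Lin-, cKit+ and Sca1-, and were divided by CD16/32 and CD34. Granulocytes were Gr1+ (n = 3). The labels do not say whether replicates came from separate animals, so p-values measure the spread between these samples.

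Long intergenic noncoding RNAs are transcripts without a long open reading frame that lie between protein-coding genes, and many are made in few cell types. During the last divisions of an erythroblast the nucleus condenses, transcription narrows to a few highly expressed genes and the cell fills with hemoglobin before it loses its nucleus. Noncoding RNAs of this lineage have been studied for parts in survival, in gene activation and in the loss of the nucleus. The sources used here give no name, function or strand definition for the intervals. Their suffixes F and R are therefore repeated only as labels, and a shorter interval inside a longer one is a separate feature that can share transcripts with it.

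Membership depended on how the arrays were set on a common scale. The 75th percentile was 50.1 to 81.3 intensity units for erythroblast samples and 265.6 to 606.5 for all other samples, so an equal scanned signal gave a higher level on an erythroblast array. Quantile normalization kept 1936 of the 2178 regions and the 75th percentile of spots detected on every array kept 2082. Scaling on 207 spike-in spots kept 98, and the signal as scanned, without any scaling, kept 272. The rule was also met by 25.1% of named genes and 27.8% of all 38391 features, beside 47.2% of the catalogue regions. Less RNA per cell, fewer expressing cells and a changed RNA composition cannot be told apart in these bulk samples.

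**Figure D1:**
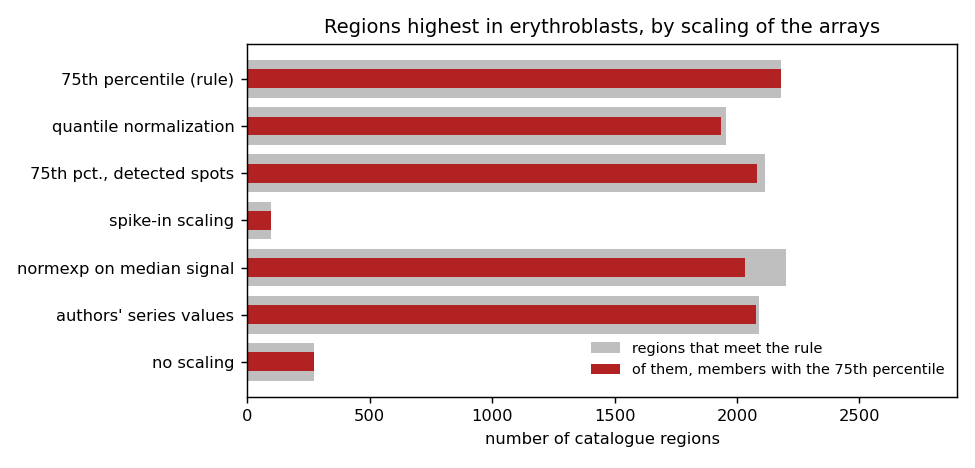
Number of catalogue regions that met the rule under 7 ways of scaling or correcting the arrays (grey bars), and how many of them were members with the 75th percentile (red bars). The count was 2178 with the 75th percentile, 98 with spike-in scaling and 275 without scaling.

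The labelled cell types were compared with their marker genes. Of 15 measured erythroid genes, all 15 were well above background in both erythroblast types, and their summed level was 13.36 to 13.78 in early and 13.94 to 14.17 in late erythroblasts, against 3.63 to 8.48 elsewhere. Neutrophil genes were present as well. All 7 were well above background in both erythroblast types, with a summed level of 9.14 to 10.70 in early and 11.27 to 11.43 in late erythroblasts and of 6.78 to 12.80 in the other populations. Of 10 measured island macrophage genes, 8 were well above background in erythroblasts, while Siglec1 and Mertk were not, and of 8 B lineage genes 4 were. So were 4 of 5 megakaryocyte and 2 of 6 stem cell genes. The arrays of 1 cell type correlated at 0.945 to 0.981 over the 2178 regions, early with late erythroblast arrays at 0.912 to 0.925, and erythroblast arrays with the others at 0.77 to 0.87.

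The distance from the higher erythroblast mean to the highest of the other 5 means, called the margin here, had a median of 1.78 on the log2 scale and ran from 0.001 to 9.15. It exceeded 1 for 1798 regions and 3 for 217. Expression outside erythroblasts was common. In all, 1551 regions had a probe well above background throughout all 5 other populations, 164 throughout none of the 5, and 21 on no array outside the erythroblasts. The population next to erythroblasts was GMP for 36.2% of the regions, granulocytes for 30.9%, MEP for 17.1%, LSK for 8.03% and CMP for 7.81%. Many regions were dim, with a median higher erythroblast mean of -2.17. The dimmest level flagged well above background was -4.06 and -3.96 on the GMP arrays. Among the other arrays outside the erythroblasts only the third MEP array, at -3.79, had a higher one. The part of this level in the rank of GMP was not tested.

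Just inside the threshold were chr4:114627748-114632898 R with a margin of 0.001, chr12:82495575-82516300 R with 0.004 and chr13:62580825-62596425 R with 0.006. Just outside were chr2:77715502-77719430 F and chr10:94900849-94928059 R, both at -0.001 and highest in granulocytes, and chr6:12072440-12075161 R at -0.002 and highest in MEP.

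A subset of 97 regions met the rule under the 75th percentile, quantile, detected-spot and spike-in scalings alike. It was formed after the values had been seen, and its levels are given as a description. Its margins had a median of 4.36 and a minimum of 2.89. Of these regions 55 were highest in late and 42 in early erythroblasts. The population next to erythroblasts was granulocytes for 34%, MEP for 25.8%, GMP for 19.6%, CMP for 17.5% and LSK for 3.09%. They came from 19 chromosomes, with 18 on chromosome 5, 12 on chromosome 6 and 10 on chromosome 17, and formed 72 groups when regions within 50 kb were joined. Of the 76 with more than 1 probe, 74 had every probe highest in erythroblasts, against 1409 of 2005 among all members with more than 1 probe. With spike-in scaling these numbers were 36 of 76 and 36 of 2005. The subset was chosen on means over these same probes, so the contrast with all members is no independent support. Every probe was well above background on all 5 erythroblast arrays in 37 of the 76 and in 177 of the 2005.

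**Figure D2:**
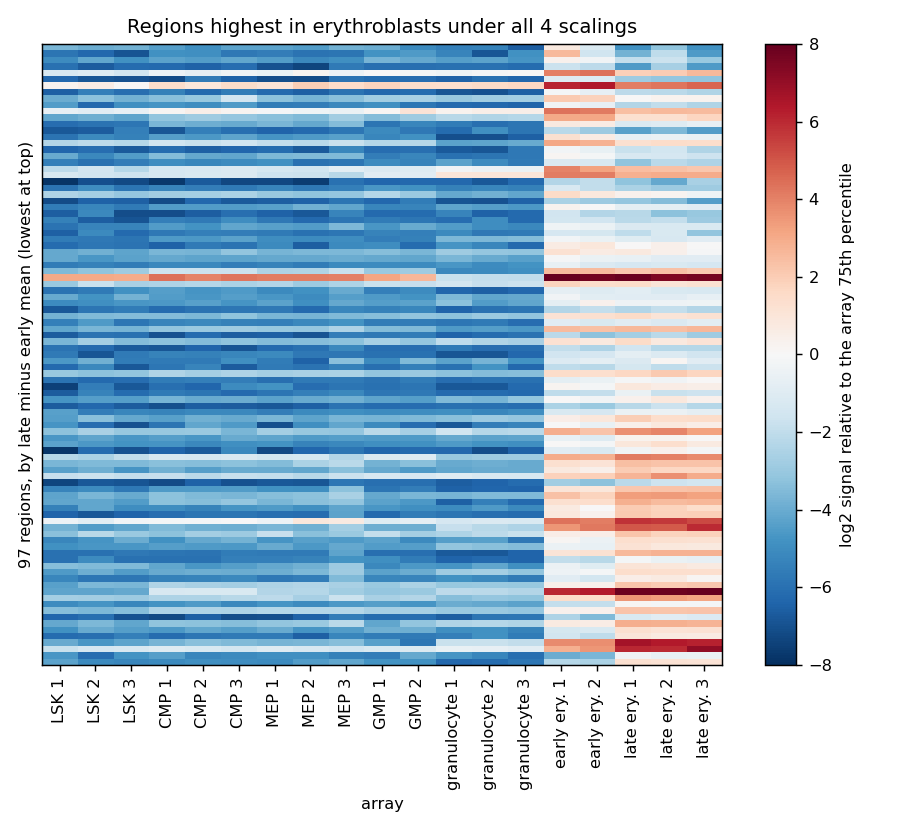
Levels of the 97 regions (rows, ordered by the late minus early mean with the lowest at the top) on the 19 arrays (columns). Colour is the log2 signal relative to the array 75th percentile, and the 5 erythroblast columns are on the right. In each row the early or the late erythroblast mean is the highest, and the other need not exceed the remaining populations. The rows were chosen by that contrast.

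The largest margin belonged to chr12:32781477-32808567 R, measured by 3 probes. Its level was 6.03 and 6.33 on the early erythroblast arrays and 7.82, 7.85 and 8.06 on the late ones. Elsewhere it was -1.27, -1.20 and -1.25 in CMP, -2.35, -2.26 and -2.75 in MEP, -2.09, -2.15 and -2.33 in granulocytes, -3.12 and -2.96 in GMP, and -4.25, -4.25 and -4.11 in LSK. No population overlapped with another across the early, late, CMP, GMP and LSK arrays. The late erythroblast mean of 7.91 ± 0.13 (SD, n = 3) was 568-fold above the CMP mean of -1.24 ± 0.04 (SD, n = 3). The size of that fold followed the scaling: it was 26.5-fold with spike-in scaling and 63.1-fold with the signal as scanned. Over the 10 regions with the largest margins, the margin ran from 6.18 to 9.15 with the 75th percentile and from 1.84 to 4.73 with spike-in scaling.

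The late erythroblast and CMP means set the margin by which the chromosome 12 region was picked out, so its other differences are given as a description. CMP minus LSK was 2.96 ± 0.14 (SE) on the log2 scale, and 3.31 with spike-in scaling. Late minus early erythroblasts was 1.73 ± 0.16 (SE), and 0.78 with spike-in scaling.

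Next in margin was chr11:95657291-95657772 R, a single-probe region at 3.81 and 3.73 in early and at 6.63, 6.37 and 6.17 in late erythroblasts. Granulocytes followed at -1.78, -1.79 and -1.98, and it was not well above background on either GMP array. Every late array lay above both early arrays. The margins of this and the following regions use the late mean, so their late minus early tests are not independent of the choice of region. The late minus early difference was 2.62 ± 0.31 (SE; limma, adjusted p = 6.12e-06), and it was called under all 4 scalings. This interval lies inside chr11:95644899-95658549, whose F and R features, with 8 probes each, were also in the subset.

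A single-probe region, chr9:56379670-56429822 R, was well above background on all 19 arrays. Its level was 2.83 and 3.54 in early and 6.05, 5.99 and 7.08 in late erythroblasts, and between -1.76 and -0.59 on the 14 other arrays. The early and late arrays did not overlap, and the difference of 3.19 ± 0.30 (SE; limma, adjusted p = 8.8e-07) was called under all 4 scalings. Outside erythroblasts its means ran from -1.47 in LSK to -0.69 in granulocytes, and MEP and GMP differed by -0.11 ± 0.30 (adjusted p = 0.828).

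Other wide margins were found at chr10:69819062-69871640 F, with 3.53 and 4.22 in early and 4.99, 4.88 and 5.96 in late erythroblasts. The region chr8:13200727-13207714 F had 0.87 and 0.32 in early and 2.10, 1.86 and 1.93 in late erythroblasts. It was not well above background on any LSK, CMP or GMP array and was at least 62.8-fold higher in late erythroblasts than in GMP. Both regions had lower early than late arrays without overlap. On chromosome 17, the 3-probe region chr17:74595885-74597555 R had 1.05 and 0.93 in early and 2.18, 2.27 and 2.37 in late erythroblasts. The 1-probe region that contains it, chr17:74580316-74599991 R, had 1.31 and 1.41 against 2.84, 2.53 and 2.65.

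**Figure D3:**
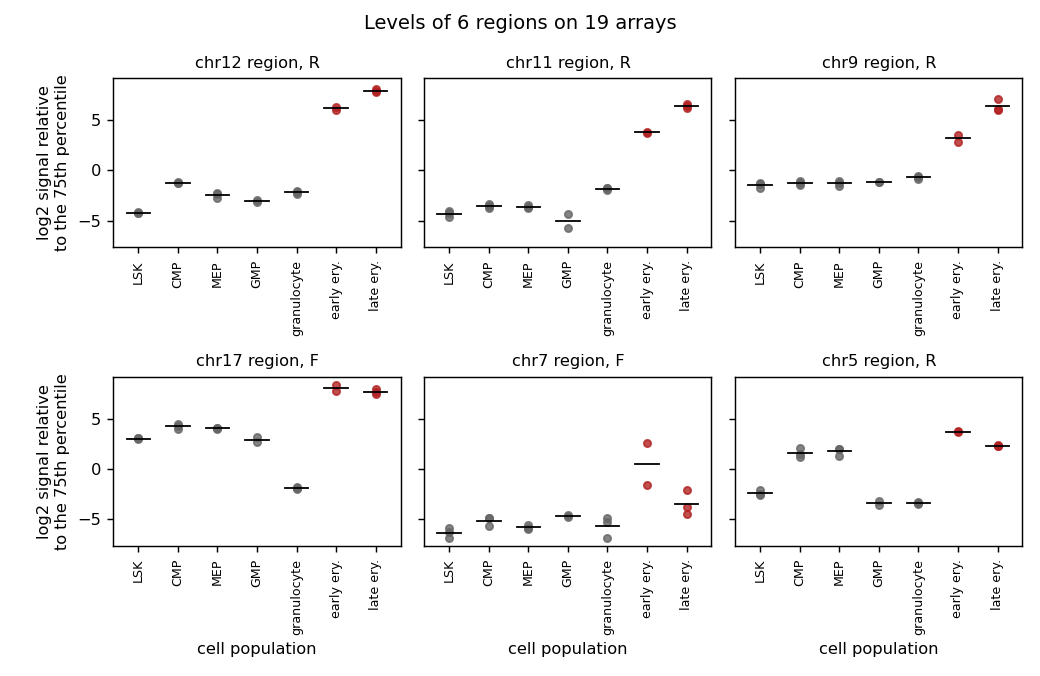
Levels of 6 regions on the 19 arrays, with 1 point per array and a bar at each cell type mean. They are the chromosome 12 and 11 regions with the widest margins, the chromosome 9 region, the chromosome 17 region at 8.04 in early erythroblasts, the chromosome 7 region whose early arrays were 2.61 and -1.59, and the chromosome 5 region that was 5.14 higher in MEP than in GMP. Erythroblasts are red and other populations grey.

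Of the 21 regions that were well above background on no other array, 12 belonged to the subset of 97. The widest margin among them was that of chr6:57695178-57695277 R, a single-probe interval. Its level was 0.21 and -0.16 in early and 0.83, 0.60 and 0.45 in late erythroblasts, at least 24.8-fold higher than in any other population. The other 20 were dimmer, and the median erythroblast level of all 21 was -2.16. That is close to the lowest level well above background on these arrays, which was -2.81 to -2.54 on erythroblast and -5.56 to -3.79 on other arrays.

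The 3 regions with the highest erythroblast means were well above background on all 19 arrays. At chr19:5801802-5802597 R the level was 9.72 and 9.63 in early, 9.79, 10.48 and 10.17 in late erythroblasts and 5.89 to 7.18 on the other 14 arrays. At chr17:17481706-17482457 R it was 9.87 and 9.62 in early, 10.25, 9.99 and 10.04 in late erythroblasts and 7.39 to 8.27 elsewhere. At chr7:108209996-108216032 R the early arrays had 9.57 and 9.21 and the GMP arrays 9.25 and 9.29, so that these overlapped and the margin was 0.12. None of these 3 regions belonged to the subset of 97.

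A region of high level that did was chr17:24152225-24169870 F, with 1 probe. It was at 8.37 and 7.71 in early and 7.92, 7.49 and 7.66 in late erythroblasts, which overlapped. CMP had 4.42, 4.0 and 4.31, MEP 4.08, 4.12 and 4.02, LSK 3.05, 3.06 and 2.94, and GMP 3.13 and 2.66, while granulocytes had -1.81, -1.92 and -1.94. The region was therefore measured in every population and lowest in granulocytes. It was higher in CMP than in LSK by 1.23 ± 0.18 (SE; limma, adjusted p = 7.47e-05), higher in MEP than in GMP by 1.18 ± 0.20 (adjusted p = 0.00031), and lower in granulocytes than in GMP by 4.78 (adjusted p = 1.6e-10).

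Late and early erythroblasts were compared over all 2178 regions. The rule takes the higher of the 2 means, so a wide difference between them could help a region to qualify. Late erythroblasts were higher at 342 regions, beside 19.5% of all 19370 features tested, and lower at 185, beside 35.8%. In shares these were 15.7% and 8.49% of the members, both under the background with the 75th percentile. The split followed the scaling. With the detected-spot percentile 881 of the 2178 were higher, a share above the 32.9% of all features, and 112 were lower, beside 25.6%. With spike-in scaling 9 were higher, beside 0.94%, and 319 lower, beside 41.1%. The median difference over the members was 0.25, against -0.13 over all features tested, and with spike-in scaling the medians were -0.70 and -1.08. Without the second early erythroblast array the number higher was 169. Slides 1 and 3 held both types, with median differences of 0.14 and 0.29 over the members, and the direction of 526 and 527 of the 527 called regions was kept there, on arrays that also entered the fit.

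Calls that held in direction under all 4 scalings were fewer and lay mostly on the early side. Early erythroblasts were higher at 111 members (5.1%, beside 25.5% of all features) and late erythroblasts at 9 (0.413%, beside 0.94%). The 9 included the chromosome 11 and 9 regions above and chr1:92177032-92180487 F. That region was at -2.31 and -2.51 in early and at 1.31, 1.13 and 1.11 in late erythroblasts, a difference of 3.59 ± 0.27 (SE; limma, adjusted p = 1.7e-07). Another was chr17:29571806-29603008 F, at -0.25, -0.61 and -0.55 in late erythroblasts and not well above background on either early array, which put it at least 4.93-fold higher in late erythroblasts (limma, adjusted p = 3.92e-05). The regions chr1:92177032-92180487 F and chr17:29571806-29603008 F were picked by this difference, and the rule used their late mean. Their p-values are thus not independent of the choice. The remaining members of the 9 were chr1:183142656-183163206 F, chr12:45415565-45423519 F, chr18:47327300-47333819 F, chr3:60292527-60292880 R and a region of the X chromosome.

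**Figure D4:**
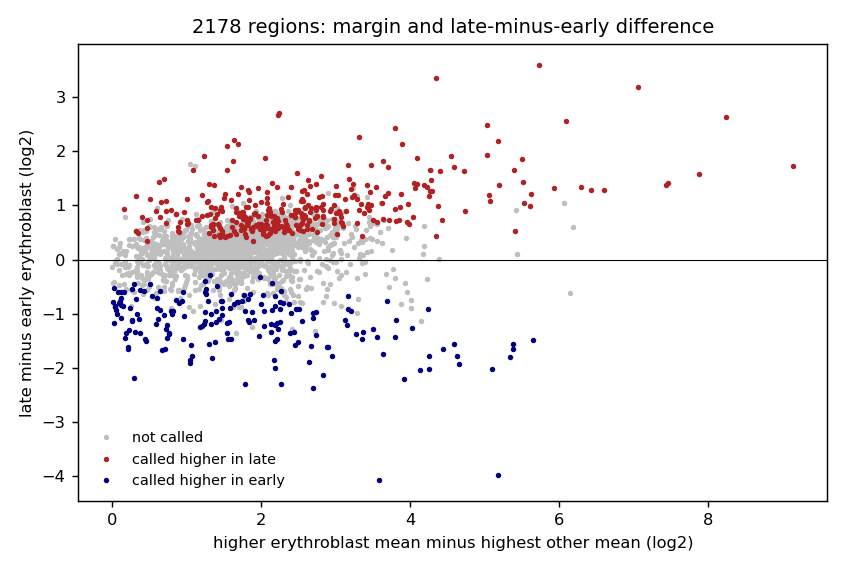
Late minus early erythroblast difference against the margin for the 2178 regions, both on the log2 scale. Red points were called higher in late (342) and blue points higher in early erythroblasts (185); grey points were not called.

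A pair of the regions with the largest early excess varied widely between the early arrays. At chr7:6296401-6311486 F the early arrays had 0.76 and -1.23, and no late array was well above background, so that early erythroblasts were at least 5.05-fold higher (limma, adjusted p = 3.6e-05). At chr7:28778209-28800409 F the early arrays had 2.61 and -1.59, an SD of 2.97 over 2 arrays, and the late arrays, of which 1 was well above background, -3.81, -2.06 and -4.50. The early arrays did not overlap with the late ones at either region. Both were picked by their early excess among the calls, and the rule used their early mean. Their tests are therefore not independent of the choice. At the second region 2 of the 3 late levels lie below what the arrays measured clearly, so no size is given for the difference. It was called (limma, adjusted p = 0.0024), but not without the first early array (adjusted p = 0.076). Both regions have a single probe.

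Neutrophil genes moved with this comparison. All 7 were higher in late erythroblasts, by a median of 1.44. The calprotectin subunit gene S100a9 had means of 9.28 in early and 10.72 in late erythroblasts. Its early arrays had 8.54 and 10.03 and its late arrays 10.60, 10.85 and 10.71. For all 7 genes the second early array was above the first, so the early means rest on 2 unlike arrays. Of the 342 regions higher in late erythroblasts, granulocytes were the highest of the other populations for 149 (43.6%), beside 46 of the 185 higher in early erythroblasts (24.9%). MEP or CMP was the highest of the other populations for 28.1% and 36.8% of them. Of the 1651 regions not called, granulocytes were the highest for 28.9% and MEP or CMP for 23%. Other marker lists moved as well. Of 8 island macrophage genes tested, 3 were higher and 0 lower in late erythroblasts (median 0.76), and of 4 B lineage genes 0 were higher and 2 lower (median -1.17). Of 4 megakaryocyte genes 1 was higher and 1 lower, and both stem cell genes tested were higher. The part of RNA from these cell types in the late minus early difference was not tested. The differences of marker and known noncoding genes are relative to the array percentile and are not given with spike-in scaling. That scaling moved the median late minus early difference over all features tested from -0.13 to -1.08. The direction of these genes, above all where the difference is small, can therefore depend on the scaling. Among 13 known long noncoding RNAs in the same comparison, 3 were higher and 5 lower in late erythroblasts, including Malat1, a nuclear RNA, at +1.38, Neat1, the scaffold of paraspeckles, at +1.22, and the imprinted transcript Kcnq1ot1 at -1.19.

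In each of the 5 groups of 3 or more neighbouring regions of the subset, the regions called between late and early erythroblasts had 1 direction. The rule used the higher of the early and late means, so these tests are not independent of how the regions were chosen. On chromosome 5, 7 overlapping or adjacent regions between 121669792 and 121792814 were all higher in late erythroblasts, by 0.99 to 1.42. The brightest, chr5:121778090-121779622 F, was at 4.32 and 4.09 in early, 5.79, 5.67 and 5.27 in late erythroblasts and -1.33 to 0.89 on the other arrays. The widest in margin, chr5:121669792-121732542 F, was at 2.32 and 1.75 in early and 3.36, 3.38 and 3.22 in late erythroblasts. None of the 7 calls held with spike-in scaling.

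On chromosome 14 the order was the opposite. Of 4 regions between 62254361 and 62308286, 3 were higher in early erythroblasts, and the fourth differed by -0.59 (limma, adjusted p = 0.0547). The region chr14:62263564-62308286 R was at 3.05 and 3.12 in early and at 1.27, 1.29 and 1.73 in late erythroblasts, a difference of -1.65 ± 0.23 (SE; limma, adjusted p = 2.51e-05). Within this group chr14:62254361-62301162 R was also higher in granulocytes than in GMP by 1.87 (adjusted p = 8.09e-08).

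A group of 3 regions on chromosome 5 between 77188300 and 77271614 was higher in early erythroblasts as well, by 0.92 to 1.64, and unequal among progenitors. The region chr5:77188300-77205150 F was at 0.77 and 0.64 in early, -1.16, -1.0 and -0.66 in late erythroblasts, -3.68, -4.07 and -3.46 in MEP and -5.82 and -5.25 in GMP. Only 1 GMP array was well above background, and both GMP levels lay below the dimmest level flagged so there (-4.06 and -3.96). The region was higher in MEP than in GMP by 1.80 ± 0.22 (SE; limma, adjusted p = 1.99e-05), a size that is therefore uncertain. The other regions of the group were higher by 1.1 and 1.83. Under normexp background correction those 3 differences were 0.02, -0.17 and 0.15, none of them called.

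**Figure D5:**
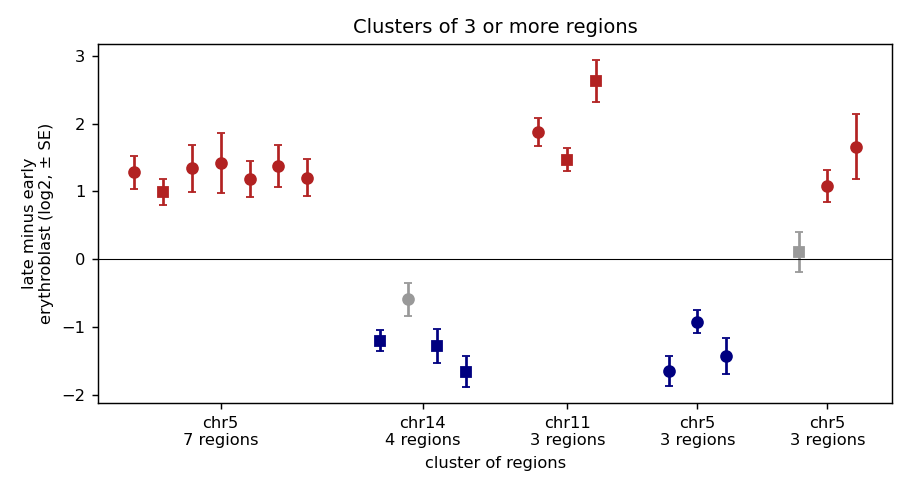
Late minus early erythroblast difference (log2, with its SE) for each region in the 5 groups of 3 or more regions of the subset that lie within 50 kb of each other. Circles are F and squares R features; red was called higher in late, blue higher in early, and grey was not called. The group of 7 on chromosome 5 lies between 0.99 and 1.42.

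Progenitors were compared where the rule sets no more than an upper limit on the levels. MEP was higher than GMP at 133 of 1798 regions tested (beside 13.6% of all features) and lower at 81 (beside 17.7%), which is 7.4% and 4.51% of the members. Under all 4 scalings 68 stayed higher (beside 8.75% of all features) and 1 stayed lower (beside 2.24%). The number lower was 212 of 2020 tested without the third MEP array (beside 14.8% of all features). With normexp correction it was 592 of 1798, a share above the 26.4% of all features. The dimmest level flagged well above background was -3.79 on the third MEP array, against -5.01 and -5.30 on the other MEP arrays. Of the slides, 1 held both populations, slide 3, where the median over the members was -0.34, against -0.11 over all arrays. Marker genes moved with this comparison too, with 13 of 15 erythroid genes higher and 7 of 7 neutrophil genes lower in MEP. Higher in MEP were also 4 of 5 megakaryocyte and 5 of 5 stem cell genes, 4 of 6 island macrophage genes were lower, and of 3 B lineage genes 1 was higher and 1 lower. The part of these genes' cell types in the counts was not tested. In the subset of 97, MEP was higher at 15 (26.8%) and lower at 5 (8.93%) of 56 regions tested, and 7 and 0 of these calls held under all 4 scalings.

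The largest difference between these progenitors lay at chr5:77084398-77086144 R, a 2-probe region well above background on all 19 arrays. MEP had 1.98, 2.01 and 1.26 and CMP 2.13, 1.45 and 1.17, near the late erythroblast levels of 2.27, 2.26 and 2.38, whereas GMP had -3.62 and -3.16, granulocytes -3.45, -3.28 and -3.39, and LSK -2.63, -2.05 and -2.45. The highest levels were those of early erythroblasts at 3.67 and 3.76. MEP exceeded GMP by 5.14 ± 0.27 (SE; limma, adjusted p = 4.07e-09), and CMP exceeded LSK by 3.96 ± 0.24 (adjusted p = 2.98e-08). In the other direction, chrX:150159252-150181275 F was at -2.53 and -2.11 in GMP and at -4.64, -4.37 and -5.84 in MEP. GMP exceeded MEP there by 2.63 ± 0.38 (SE; limma, adjusted p = 6.97e-05). The third MEP level lay below the dimmest level flagged well above background on that array (-3.79), so this size is uncertain. Both regions were picked by their MEP minus GMP difference among the calls. Their tests of that difference are therefore not independent of the choice. Neither region belonged to the subset that met the rule under the spike-in and the other scalings alike.

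CMP was higher than LSK at 146 of 1976 regions tested (beside 22.2%) and lower at 67 (beside 14.4%). With the detected-spot percentile the split turned to 53 higher (beside 10.2%) and 186 lower (beside 23.7%). Under all 4 scalings 27 higher (beside 3.3%) and 2 lower (beside 3.85%) held. In the subset of 97, which was chosen on these same arrays, 26 regions (38.2%) were higher and 1 (1.47%) was lower of 68 tested. Of these calls 6 and 0 held under all 4 scalings. MEP and CMP differed at 17 of 1922 regions, 11 higher (beside 2.01%) and 6 lower (beside 2.54%) in MEP. When limma was fitted on those 6 arrays alone 0 members were called, with 130 at an unadjusted p under 0.05.

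Granulocytes were higher than GMP at 259 of 1873 regions (beside 25.5%) and lower at 260 (beside 38.9%). With slide as a block these were 150 (beside 18.7%) and 116 (beside 29.2%). Under all 4 scalings 99 stayed higher (beside 16.6%) and 24 lower (beside 9.72%). These comparisons share arrays with each other, GMP with MEP and with granulocytes and CMP with LSK and with MEP, so their counts are not independent.

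Of 1067 intervals measured as both F and R, 382 had both as members, 431 had 1 and 254 had neither. At chr10:83181374-83249774 the R feature had a margin of 1.40 and the F feature one of -4.92, being highest in LSK. Members had a median interval length of 12185 bp and 3 probes, with 16.9% under 1 kb, and all catalogue regions had 10676 bp and 3 probes, with 21.3% under 1 kb. Per chromosome the share of regions that were members ran from 38.8% on X to 56% on chromosome 11.

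The patterns of the 3 brightest members were set beside those of 11250 named genes over the 7 cell type means. The chromosome 19 region was most like Ubr3, a ubiquitin ligase gene (Pearson r = 0.999), the chromosome 17 region at 17481706 most like Oaz1, an inhibitor of polyamine synthesis (r = 0.999), and the chromosome 7 region at 108209996 most like the ribosomal protein gene Rps29 (r = 0.997). With 7 means that share arrays and scaling, and 11250 genes to choose from, values near 1 describe the order of populations and no more.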

How the data were processed

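Per the file headers, Feature Extraction 11.5.1.1 from Agilent produced the deposited intensity of each spot, with background subtraction and flags, on mm9 annotation. The series table of the authors repeats those background-subtracted intensities without scaling. Control spots (1319 of 62543) and outlier spots were left out. The processed signal was taken to log2, the array 75th percentile was subtracted, and spots and then probes of a feature were averaged. In limma 3.58.1 (R 4.3.3), 7 cell type means were fitted over 19 arrays with eBayes and Benjamini-Hochberg adjustment at 0.05 over all features tested. A feature was tested where at least 1 group was well above background throughout, and called where the higher group was. Where the lower group was well above background on no array, the fold is a bound ("at least"): each of its arrays was set to the dimmest level flagged well above background there, or to the region's own level if that was brighter. The script was tested on simulated data.

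Members and lists were chosen with earlier results of these data known. Named regions are the 10 highest in erythroblast mean, the 10 with the largest margin, the 5 largest late-early and MEP-GMP differences each way among calls, 3 on each side of the threshold, 5 intervals with unlike orientations, and the subset of 97, added after its values were seen. Lists held erythroid, macrophage, B lineage, neutrophil, megakaryocyte, stem cell and known noncoding genes. A total of 27235 probes were named through a RefSeq list. Normexp (offset 50) used the median signal. Neighbour genes and sequences were not analysed here, since no mm9 genome was used. The number of arrays limits the precision.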

Additional observations from a re-analysis of the deposited data

How the results depend on the processing

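The number of members was 98 with spike-in scaling and 275 without scaling, an alternative chosen after seeing the data; under the other alternatives it stayed within 1.5 times 2178, and 2168 to 2416 regions met the rule when 1 array was left out. The counts of member regions called were as follows. With quantile normalization 289 were lower in late than in early erythroblasts, 7 higher in MEP than in CMP and 42 lower in CMP than in LSK. With the detected-spot percentile the counts, higher then lower, were 881 and 112 for late against early, 246 and 25 for MEP against GMP, 53 and 186 for CMP against LSK, and 439 and 138 for granulocytes against GMP, and 28 were higher in MEP than in CMP. With spike-in scaling they were 9 and 319 for late against early, 28 and 2 for CMP against LSK, 99 and 24 for granulocytes against GMP, and 0 and 0 for MEP against CMP (10 at an unadjusted p under 0.05), and 1 was lower in MEP than in GMP. With normexp they were 194 and 89 for late against early, 34 and 592 for MEP against GMP, and 96 and 36 for CMP against LSK, and 142 were higher in granulocytes than in GMP. With the probe of highest mean 581 were higher in late erythroblasts, 588 higher in granulocytes than in GMP and 11 lower in MEP than in CMP. Without the filter on dim probes 45 were lower in MEP than in GMP, and 7 and 2 differed between MEP and CMP. The slide block gave 150 and 116 for granulocytes against GMP. A fit on the compared arrays alone gave 420 lower in granulocytes than in GMP and, in limma, 0 and 0 for MEP against CMP. Leaving out 1 array gave 169 to 325 higher and 137 to 185 lower for late against early, 78 to 136 and 41 to 212 for MEP against GMP, 4 to 31 and 1 to 8 for MEP against CMP, 105 to 133 and 49 to 67 for CMP against LSK, and 169 to 240 and 194 to 228 for granulocytes against GMP. The lowest of these, 169 higher in late, came without the second early erythroblast array, and 169 higher in granulocytes without the first GMP array, and the cause was not tested.

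The median over all features of the late minus early difference was -0.13, and 0.24 and -1.08 with the detected-spot and spike-in scalings. Late minus early turned sign with spike-in scaling at chr19:5801802-5802597 R (-0.49), chr17:17481706-17482457 R (-0.60), chr17:39982023-39983277 F (-0.80), chr19:5798135-5800557 R (-0.56), chr6:57695178-57695277 R (-0.36) and chr5:92548501-92566401 R (-0.85). It turned at chr17:39983902-39985688 F with quantile (0.055) and detected-spot scaling (0.14) and with 1 array left out (-0.60 to 0.14), and at chr17:39960567-39992817 F likewise (0.16, 0.17, and -0.56 to 0.16). It also turned at chr17:24152225-24169870 F with detected-spot scaling (0.026), at chr17:39982023-39983277 F with normexp (-0.087) and with 1 array left out (-0.083 to 0.39), and at chr5:92548501-92566401 R with the probe of highest mean (-0.59) and with 1 array left out (-0.05 to 0.26). MEP minus GMP turned with spike-in scaling at chr18:38395600-38407525 R (0.008), chr5:110158475-110223700 R (0.11) and chr5:92556322-92558910 F (0.10). With normexp it turned at chr5:121669792-121732542 F (-0.15), chr17:36131460-36136694 F (-0.038), chr17:74580316-74599991 R (-0.078), chr18:57124435-57134910 R (-0.061), chr5:36969767-37087176 R (-0.074), chr5:77188626-77219161 F (-0.17) and chr6:86524425-86524935 F (-0.052).

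Samples with the same replicate number correlated at 0.164 and -0.029 for late with early erythroblasts, so the numbers were not taken as pairs; with a replicate block 299 were higher and 177 lower in late erythroblasts, and 118 and 83 in MEP against GMP. The neighbour gene comparison was not run.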
